A study of Mus musculus with 6 samples.

Results

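Retinoid genes make, carry, sense and destroy retinoic acid, and 9 of them were followed here through the fetal mouse liver at embryonic day 11.5: Rdh10, Aldh1a2, Rbp4, Lrat, Crabp1, Crabp2, Rarb, Cyp26a1 and Cyp26b1. They were chosen by name, with earlier results of these data known, and all 9 had a feature of their own among the 23279 genes tested. Total RNA of whole dissected livers was read on 6 Affymetrix arrays. In 3 arrays the livers are labelled as a Stab2-Cre;Gata4 knockout with a genotype of Stab2-Cre;Gata4fl/fl, and in the other 3 as Gata4 heterozygous, which the labels use as controls. Parents were Stab2-Cre tg/wt;Gata4fl/wt animals and Gata4fl/fl animals, so every embryo carried at least 1 floxed Gata4 allele, and both titles name the Cre. The Stab2 gene is active in sinusoidal endothelium, the lining of the liver's capillaries, whereas each array read RNA of the whole organ. The labels call the replicates biological. The sources used here do not give the number of embryos per array, and p-values measure the spread between these arrays.

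Retinol travels in blood bound to the carrier made from Rbp4 and is stored in tissues as retinyl ester. Retinol dehydrogenases such as RDH10 turn it into retinal, retinal dehydrogenases such as ALDH1A2 turn that into retinoic acid, and enzymes of the CYP26 family break the acid down. Retinoic acid binds nuclear receptors that sit on DNA as pairs of a retinoic acid receptor and a retinoid X receptor. In the embryonic liver, Aldh1a2 is known as a gene of the mesothelium and of the mesenchyme beneath it, and stellate cells later become the body's main store of vitamin A.

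The receptor gene Rarb was higher in livers labelled knockout and was the only member past the threshold. It stood 1.64-fold above control livers, with no overlap between the groups. Cyp26b1 and Crabp1 also lay above every control array by smaller amounts, without passing the test, and Rdh10 lay slightly below. Aldh1a2 and Crabp2 differed more on average than those genes, with 1 array, knockout replicate 2, far above the others. Rbp4, Lrat and Cyp26a1 had intervals that included zero, as did Rdh10 and Crabp2.

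Values are the authors' log2 expression values, made with RMA. Each gene was tested with limma as labelled knockout minus control, with Benjamini-Hochberg adjustment over all 23279 genes and a threshold of 0.05 on the adjusted p. By that test 836 genes (3.59%) were higher and 644 (2.77%) lower, and 1 of the 9 members was higher and 0 lower. At an unadjusted p below 0.05, 4 members were higher and 0 lower, against 11.1% and 11.5% of all genes. In 3 members all knockout arrays lay above all control arrays, which held for 13.0% of all genes, and in 1 member they lay below, which held for 14.3%. The median log2 difference of the 9 members was 0.33, beside -0.0078 over all genes.

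Several properties of the arrays bear on these genes. Gata4 itself read 9.87 to 9.96 in control arrays and 10.26 to 10.64 in arrays labelled knockout, so its signal does not itself show the deletion. The arrays read whole livers, and the share of this signal from cells with the Cre was not measured. Every direction given here rests on the labels, and the sources used here do not say where the Gata4 probes lie. Of 10 markers of sinusoidal endothelium, the cells in which Stab2-Cre acts, 6 were lower (60.0%, against 2.77% of all genes) and 1, Gata4, was higher. Stab2 (-1.30, limma adjusted p = 0.0161) and Lyve1 (-1.14, adjusted p = 0.0128), picked after their values were seen, were among the 6. The Gata4 call (0.51, limma adjusted p = 0.0409) held in 1 of 6 fits without 1 array, where adjusted p-values ran from 0.0366 to 0.144. Of 12 macrophage markers 9 were lower (75.0%). Mrc1 is in the macrophage and the sinusoidal list and counts as lower in each. Albumin (Alb) and alpha-fetoprotein (Afp), defining genes of the liver's own cells, read 13.29 or more in every array. Xist read 10.19 to 10.71 in all 3 knockout arrays and control replicate 2. It read 3.58 in control replicate 1 and 3.96 in control replicate 3, the arrays in which Y-linked Uty was high. Embryo sex was therefore not balanced, and each member is also given against control replicate 2 alone. Control replicate 2 had the highest mean level of 9 heart markers, 6.86 against 5.76 and 5.02 in control replicates 1 and 3. What this did to the differences against that array was not tested. In such whole-organ RNA, fewer cells of a type and less RNA per cell cannot be told apart. The mean log2 level of 13 red cell markers was 9.84 to 10.41 in control arrays and 9.29 to 9.42 in knockout arrays. All 13 had a negative difference, and 6 of them passed as lower (46.2%, against 2.77% of all genes). Scaling to 17 hepatoblast genes moved the median difference of all genes by -0.22 and that of Rarb to 0.49. With each array centred on those genes, limma gave every gene the same standard error of 0.26, and no member passed (Rarb adjusted p = 0.401). With 1 constant taken from all knockout arrays, a setting chosen after seeing the data that keeps the standard errors of single genes and ignores the error of the constant, Rarb passed (adjusted p = 0.0354) and Rdh10 passed as lower (-0.36, adjusted p = 0.0246). In that setting 506 genes were higher and 5770 lower.

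**Figure D1:**
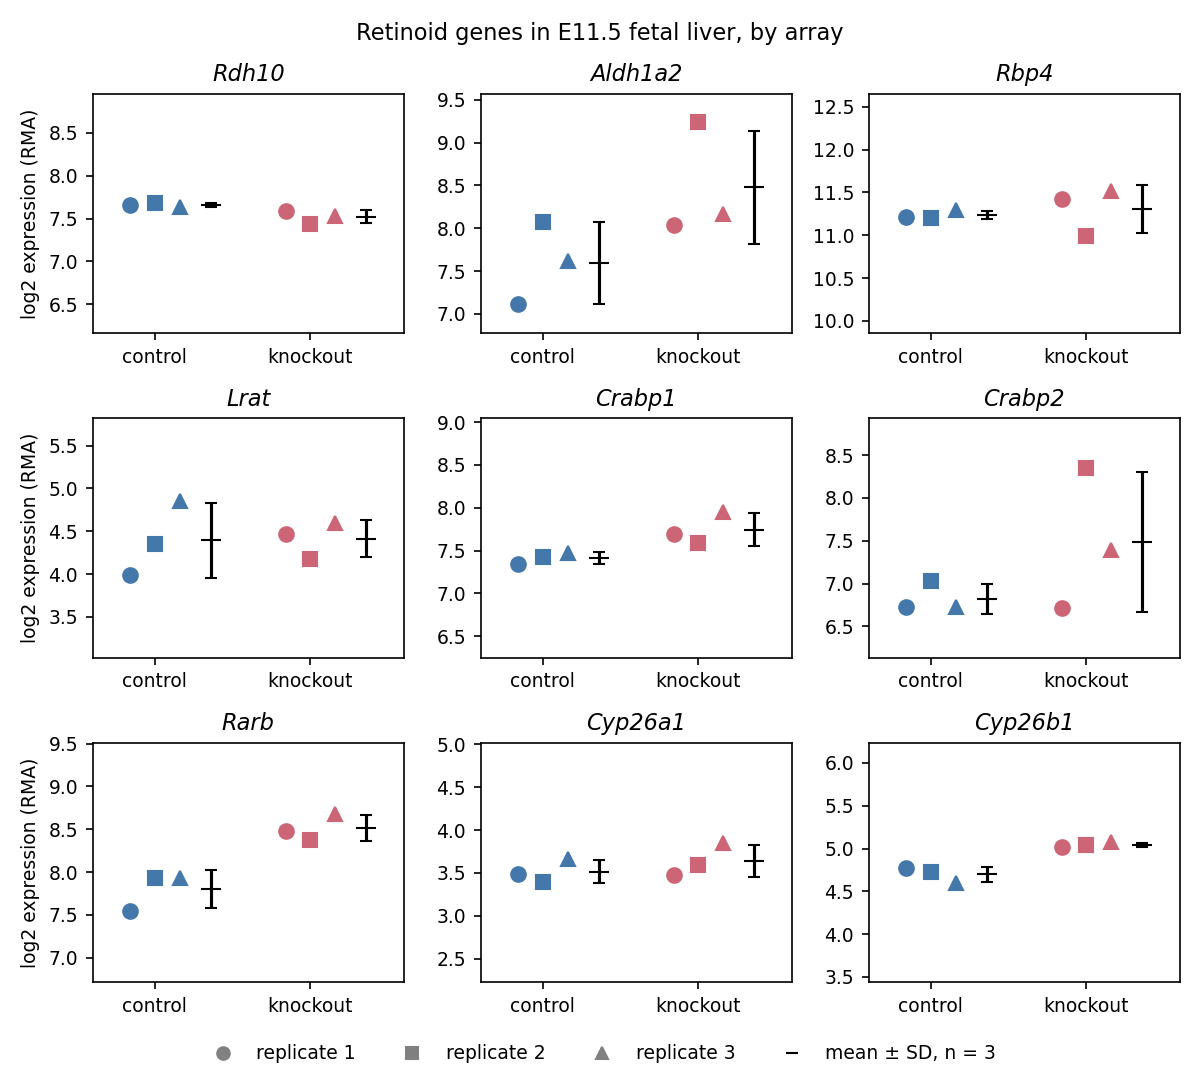
Log2 expression (RMA) of each of the 9 retinoid genes on the 6 arrays, with controls in blue, livers labelled knockout in red, the marker shape giving the replicate and the black bars mean ± SD over 3 arrays; every panel spans the same range of log2 units. The Rarb points of the groups are apart (7.54 to 7.93 against 8.38 to 8.68), while Aldh1a2 and Crabp2 each have 1 knockout point, replicate 2, far above the others.

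Rarb encodes a retinoic acid receptor whose own transcription is a classical response to retinoic acid. A regulatory sequence is shown here because it is the textbook example of how such a gene is controlled. The element is a direct repeat of a 6-base core with 5 bases between the copies, called DR5. The 100 bases before the Rarb start used by RefSeq (GRCm38.p6, chr14:16575477-16575576, minus strand) hold one, and the cores are in capitals.
Rarb: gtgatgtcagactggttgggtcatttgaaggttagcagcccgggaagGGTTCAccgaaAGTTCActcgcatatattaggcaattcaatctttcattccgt
The element spans bases -53 to -37 relative to that start, at chr14:16575513-16575529. Cyp26a1, the breakdown enzyme gene also known to respond to retinoic acid, had one of the same kind at bases -32 to -16 (chr19:37697776-37697792), read on the strand opposite to the gene.
Cyp26a1: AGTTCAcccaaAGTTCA
The cores searched were AGGTCA together with AGTTCA and also GGGTCA and lastly GGTTCA, on both strands, in windows from 250 bases before to 50 after a start. RefSeq windows were at hand for 7 members, 8 windows in all, and not for Rdh10 and Crabp2. A DR5 lay in 32 of 32851 windows (0.0974%) over all genes and in 2 of the 8. It lay in 0 of 64 windows of 43 other genes of the pathway. Spacings of 2 bases (DR2, 0.268% of all windows) and of 1 base (DR1, 0.222%) were in none of the 8. The letters AGATAA or AGATAG or else TGATAA or TGATAG, which GATA factors can bind, were in 29.8% of all windows and in none of the 8. These are matches of letters, and binding was not measured.

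Rarb read 7.54, 7.93 and 7.93 in control replicates 1, 2 and 3, and 8.48, 8.38 and 8.68 in knockout replicates 1, 2 and 3. Every knockout array was above every control array. Its mean was 7.80 ± 0.22 in controls and 8.51 ± 0.15 in livers labelled knockout (SD, n = 3), and the log2 difference of 0.71 (SE 0.14) gave a limma adjusted p = 0.0287. Against control replicate 2 alone the difference was 0.58. A sex term gave the same 0.58, as it also sets the knockout arrays against control replicate 2 alone. The call was then lost (limma adjusted p = 0.272), in a fit where only 3 of all genes were higher and 0 lower. It was also lost without knockout replicate 3 (0.63, adjusted p = 0.0902), control replicate 1 (0.58, 0.0638), control replicate 2 (0.78, 0.0609) or control replicate 3 (0.78, 0.0814). Without control replicate 3 only 25 of all genes were higher and 16 lower. Without knockout replicate 2, the array in which other retinoid genes stood out, Rarb differed by 0.78 (adjusted p = 0.0360).

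Rarb is also expressed in mesenchyme, whose markers were counted beside it. Of 16 markers of stellate cells and liver mesenchyme, 5 were higher (31.2%, against 3.59% of all genes) and 0 lower, and the other 11 did not pass. Their mean log2 level was 8.66 to 8.87 in control arrays and 9.04 to 9.35 in knockout arrays. Of 12 mesothelial markers 3 were higher, 0 lower and 9 not past the threshold, with levels of 7.13 to 7.29 and 7.42 to 7.71. Of 17 hepatoblast markers 1 was higher and 0 lower, with levels of 10.15 to 10.21 and 10.23 to 10.54. Their part in the Rarb difference was not tested.

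Neither enzyme of synthesis passed the test. Rdh10, which makes the first oxidation step from retinol, read 7.65, 7.68 and 7.64 in control replicates 1, 2 and 3, and 7.59, 7.44 and 7.54 in the knockout arrays. The knockout arrays were all below the controls, by a mean of only 0.14: the log2 difference was -0.14 (SE 0.09, 95% interval -0.34 to 0.06, limma adjusted p = 0.421). It passed as lower when the knockout arrays were shifted to the hepatoblast genes, as given above.

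Aldh1a2, the main retinal dehydrogenase of the early embryo, varied most of the 9 over the arrays. It read 7.11, 8.07 and 7.61 in control replicates 1, 2 and 3, and 8.03, 9.24 and 8.16 in knockout replicates 1, 2 and 3. The groups overlapped, since control replicate 2 was above knockout replicate 1. The controls themselves ranged over nearly a full log2 unit. The difference of 0.88 (SE 0.34, 95% interval 0.09 to 1.67) did not pass (adjusted p = 0.174). It was 0.41 against control replicate 2 alone and 0.50 without knockout replicate 2 (adjusted p = 0.310).

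Transport and storage genes showed no difference beyond the spread. Rbp4, the plasma carrier of retinol that hepatocytes secrete, read 11.21, 11.20 and 11.29 in control replicates 1, 2 and 3. In the knockout arrays it read 11.42, 10.99 and 11.52, on both sides of the controls. The log2 difference was 0.08 (SE 0.14, 95% interval -0.25 to 0.40, limma adjusted p = 0.828). Lrat, which esterifies retinol for storage and marks mature stellate cells, read 3.98, 4.35 and 4.86 in controls and 4.46, 4.18 and 4.60 in knockout arrays. Its controls spread more widely than its knockout arrays, and the difference was 0.02 (SE 0.21, 95% interval -0.48 to 0.51, limma adjusted p = 0.976). Lrat was dim: it was among the dimmest 50% of genes.

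The cellular retinoic acid binding proteins are a pair of paralogs. Crabp1, which is thought to hold retinoic acid in the cytoplasm, read 7.34, 7.43 and 7.47 in controls and 7.69, 7.59 and 7.96 in knockout arrays. All knockout arrays were above all controls, by little: 0.33 (SE 0.12, 95% interval 0.07 to 0.60, limma adjusted p = 0.133). Crabp2, which carries retinoic acid to the receptors in the nucleus, read 6.72, 7.02 and 6.72 in controls and 6.71, 8.35 and 7.39 in knockout arrays. Knockout replicate 1 was at the level of the controls and replicate 2 far above them. The difference of 0.66 (SE 0.35, 95% interval -0.15 to 1.47) did not pass (limma adjusted p = 0.325). Without knockout replicate 2 it was 0.23 (adjusted p = 0.609), and without knockout replicate 1 it was 1.05 (adjusted p = 0.0651).

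Of the breakdown enzymes, Cyp26b1 separated the groups and Cyp26a1 did not. Cyp26b1 read 4.77, 4.73 and 4.60 in controls and 5.02, 5.04 and 5.07 in knockout arrays. The knockout arrays lay closer to each other (SD 0.025) than the controls (SD 0.088), and the gene is dim, among the dimmest 50% of genes. The log2 difference was 0.35 (SE 0.09, 95% interval 0.14 to 0.55), short of the threshold (limma adjusted p = 0.0608). Cyp26a1 was dimmer, among the dimmest 25%, and read 3.49, 3.39 and 3.66 in controls and 3.48, 3.60 and 3.85 in knockout arrays. Its groups overlapped, and the difference was 0.12 (SE 0.13, 95% interval -0.16 to 0.41, limma adjusted p = 0.643). No signal over background was used, so whether the Cyp26a1 feature measured any transcript is not known. Rarb and Cyp26a1 were the members with a DR5 before their start among the 7 with windows. Rarb passed as higher and Cyp26a1 did not pass. Whether their differences differ from each other was not tested.

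**Figure D2:**
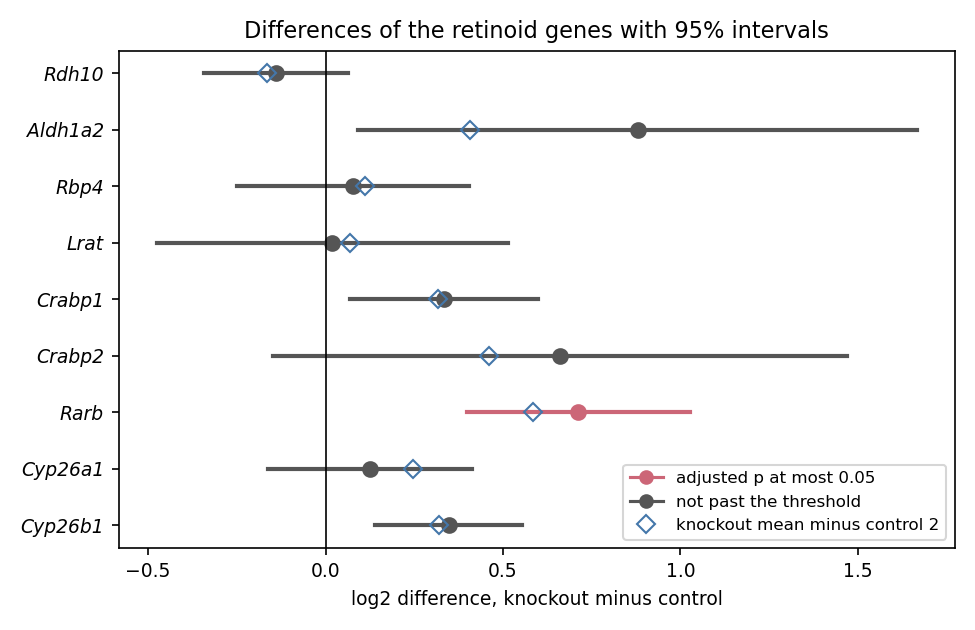
Log2 difference between livers labelled knockout and controls for the 9 genes, with 95% intervals of the limma fit (horizontal lines, no adjustment for many genes); red marks the gene past the threshold, and open diamonds give the knockout mean minus control replicate 2 alone. Rarb lies at 0.71 with an interval of 0.40 to 1.03, and the intervals of Aldh1a2 and Crabp2 are the widest of the 9.

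Aldh1a2 and Crabp2 were highest in knockout replicate 2. Relative to the control mean, Aldh1a2 read 0.43, 1.64 and 0.57 higher in knockout replicates 1, 2 and 3, and Crabp2 read -0.11, 1.53 and 0.57. The 4 genes whose profile over the 6 arrays was most like that of Aldh1a2 were Ror1, Skida1, Rragd and Hoxa3, with mean absolute differences between centred log2 profiles of 0.10, 0.17, 0.17 and 0.18. Since they were chosen for that likeness, they too were highest in knockout replicate 2. Markers of tissues next to the liver differed among themselves in that array, and 23.3% of all genes were highest there. Of the liver's own lists, 3 of 16 markers of stellate cells and liver mesenchyme and 3 of 12 mesothelial markers were highest there. Among these were Pdgfra (0.77, 1.86 and 0.86 above the control mean in knockout replicates 1, 2 and 3) and Tcf21 (0.46, 1.58 and 0.97). Both were picked after their values were seen, and their part in the Aldh1a2 and Crabp2 values was not tested. The mean log2 level of 6 neural markers was 4.71 to 4.75 in controls and 4.77, 6.21 and 4.92 in knockout replicates 1, 2 and 3, and all 6 were highest in replicate 2. For 8 markers of gut, stomach and pancreas it was 5.04 to 5.06 in controls and 4.96, 5.66 and 5.12 in the knockout arrays, and 3 of the 8 were highest in replicate 2. For 7 of gonad, adrenal and mesonephros it was 4.82 to 4.95 in controls and 4.92, 5.42 and 4.95 in the knockout arrays, and 2 of the 7 were highest in replicate 2. The 9 heart markers were not high there: their level was 5.76, 6.86 and 5.02 in control replicates 1, 2 and 3. In knockout replicates 1, 2 and 3 it was 5.11, 5.10 and 6.11.

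The highest members of the neural, gut and gonad lists, picked after their values were seen, carried much of the means in replicate 2. Barx1, a factor of stomach mesenchyme, was 2.97 above the control mean in knockout replicate 2 on the log2 scale and 0.23 and 0.68 above it in replicates 1 and 3. Osr1, a factor of lateral and intermediate mesoderm, was 3.46 above it in replicate 2, and the neurofilament gene Nefl 3.33. None of the 3 passed the test. Other members of the gut and gonad lists went both ways in replicate 2. Sox2 (2.06), Lhx9 (0.75) and Nkx6-1 (0.51) were above the control mean. Cdx2 (-0.28), Nkx2-3 (-0.45) and Star (-0.58) were below it, and all of these were picked in the same way. The part of these markers in the Aldh1a2 and Crabp2 values was not tested. Rarb, Crabp1 and Cyp26b1 followed another pattern: their readings in knockout replicate 2 were 0.58, 0.18 and 0.34 above the control mean, close to or below those in the other knockout arrays, and Rbp4 and Rdh10 were lowest there.

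**Figure D3:**
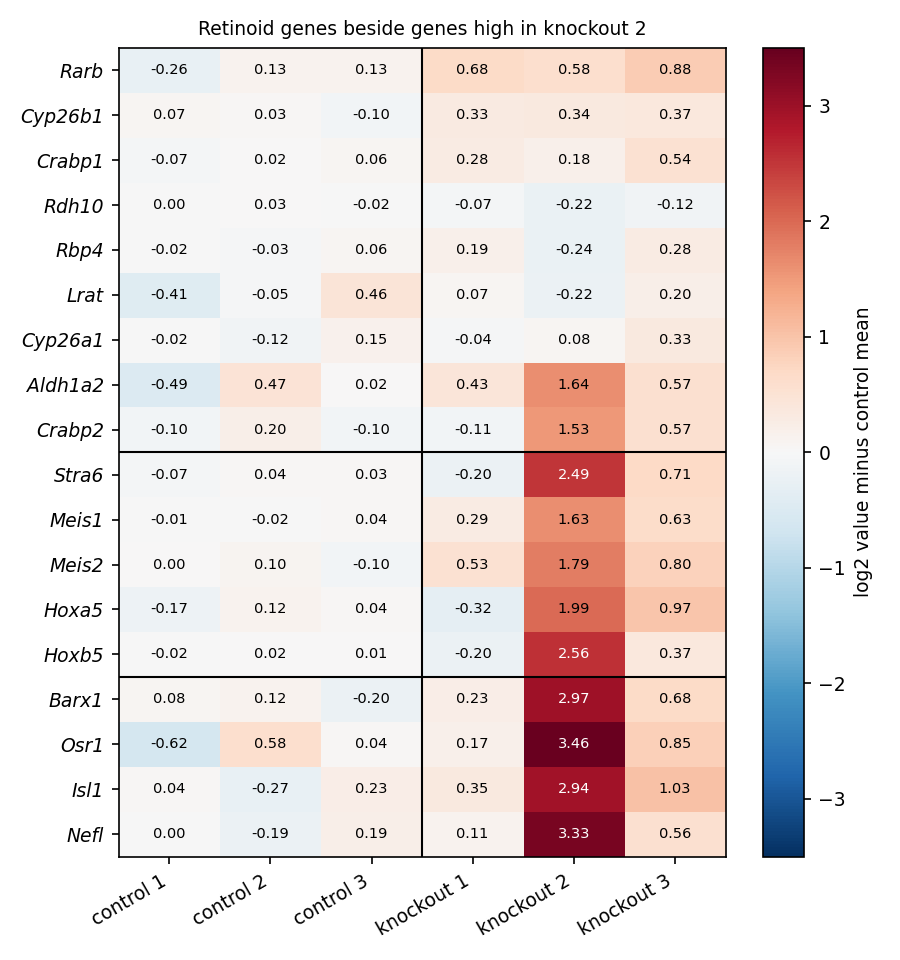
Log2 value minus the control mean (colour and printed number) on each of the 6 arrays for the 9 retinoid genes (top block), 5 other retinoid pathway or responsive genes (middle) and 4 genes of neighbouring tissues (bottom); the genes of the bottom block, and Hoxa5 and Hoxb5, were picked after their values were seen. Knockout replicate 2 is the darkest column for Aldh1a2 (1.64), Crabp2 (1.53) and the lower blocks, but not for Rarb (0.58).

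The wider pathway was read from lists of 61 further genes, 56 of them measured. Of these, 2 were higher (3.57%), 0 were lower and 54 did not pass, with a median log2 difference of 0.06. That share is close to the one over all genes (3.59%). At an unadjusted p below 0.05 the limma test gave 7 higher (12.5%, against 11.1% of all genes) and 2 lower (3.57%, against 11.5%). Rxrg, a retinoid X receptor that pairs with retinoic acid receptors, read 4.61, 4.50 and 4.65 in controls and 5.06, 5.31 and 4.94 in knockout arrays, a rise of 0.52 (SE 0.12, limma adjusted p = 0.0401). Ncoa1, a coactivator of nuclear receptors, read 6.74, 6.82 and 6.67 in controls and 7.14, 7.13 and 7.21 in knockout arrays, a rise of 0.42 (SE 0.09, limma adjusted p = 0.0358). In both genes all knockout arrays were above all controls. Neither call held in any of the 6 fits without 1 array, where adjusted p-values ran from 0.0641 to 0.124 for Rxrg and from 0.0609 to 0.134 for Ncoa1. Both were also lost with a variance trend, the replicate block, a sex term or either scaling to hepatoblast genes, at adjusted p-values from 0.0579 to 0.697, and Rxrg is among the dimmest 50% of genes.

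Among the other receptors, 4 measured, none passed. Rara differed by 0.47 (limma adjusted p = 0.149), with overlapping groups, although Rarb of the same family rose. In the coregulator list Ncoa2 differed by 0.20 (adjusted p = 0.355). Of 17 retinol dehydrogenases and retinal reductases 0 passed, and the median was -0.0018, alongside the small difference of Rdh10. The smallest p-values there belonged to Dhrs4 (-0.22, adjusted p = 0.203) and Rdh11 (0.34, adjusted p = 0.152). Of 4 retinal dehydrogenases besides Aldh1a2, 0 passed, and Aldh8a1 (0.40, adjusted p = 0.257) and Aldh1a1 (0.23, adjusted p = 0.326) had the smallest p-values.

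Handling of retinyl esters and carotenoids, with 6 genes measured, likewise had 0 past the threshold. Scarb1, a lipoprotein receptor that also takes up carotenoids, differed by -0.33 (limma adjusted p = 0.123), and Dgat1, an acyltransferase that can esterify retinol, by 0.19 (adjusted p = 0.305). Of 8 carriers and uptake genes 0 passed. Stra6, the membrane receptor for the RBP4 carrier, read 6.20, 6.31 and 6.31 in controls and 6.08, 8.77 and 6.98 in knockout arrays. As in Crabp2, knockout replicate 2 was far above the rest and replicate 1 was not above the controls. The difference of 1.00 (SE 0.56, adjusted p = 0.357) was 0.25 without knockout replicate 2. Rlbp1, a retinal-binding protein of the eye, differed by -0.14 (95% interval -0.40 to 0.11, limma adjusted p = 0.519). With the knockout arrays shifted to the hepatoblast genes, Dhrs4 (-0.44, adjusted p = 0.0157), Scarb1 (-0.56, 0.0147) and Rlbp1 (-0.37, 0.0437) were among the pathway genes that passed as lower by limma. Ttr, which carries RBP4 in plasma and was picked after its value was seen, differed by -0.0026 (limma adjusted p = 0.996).

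Genes known to respond to retinoic acid had the highest median of the pathway lists, 0.71 over 11 measured genes, and 0 of the 11 passed in the main fit. In 6 of the 11 the highest of the 6 arrays was knockout replicate 2, as was so for 23.3% of all genes. Without that array the median was 0.27. Cdx1, named after its value was seen, was the only 1 of the 11 with a negative difference (-0.30, limma adjusted p = 0.302). Meis2 and Meis1, homeobox genes of mesoderm and nervous system, had the smallest p-values. Meis2 read 9.19, 9.29 and 9.09 in controls and 9.72, 10.98 and 9.99 in knockout arrays (1.04, SE 0.28, limma adjusted p = 0.0712). Meis1 read 9.39, 9.38 and 9.44 in controls and 9.69, 11.03 and 10.03 in knockout arrays (0.85, SE 0.29, adjusted p = 0.134). In both, every knockout array was above every control, with replicate 2 highest.

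**Figure D4:**
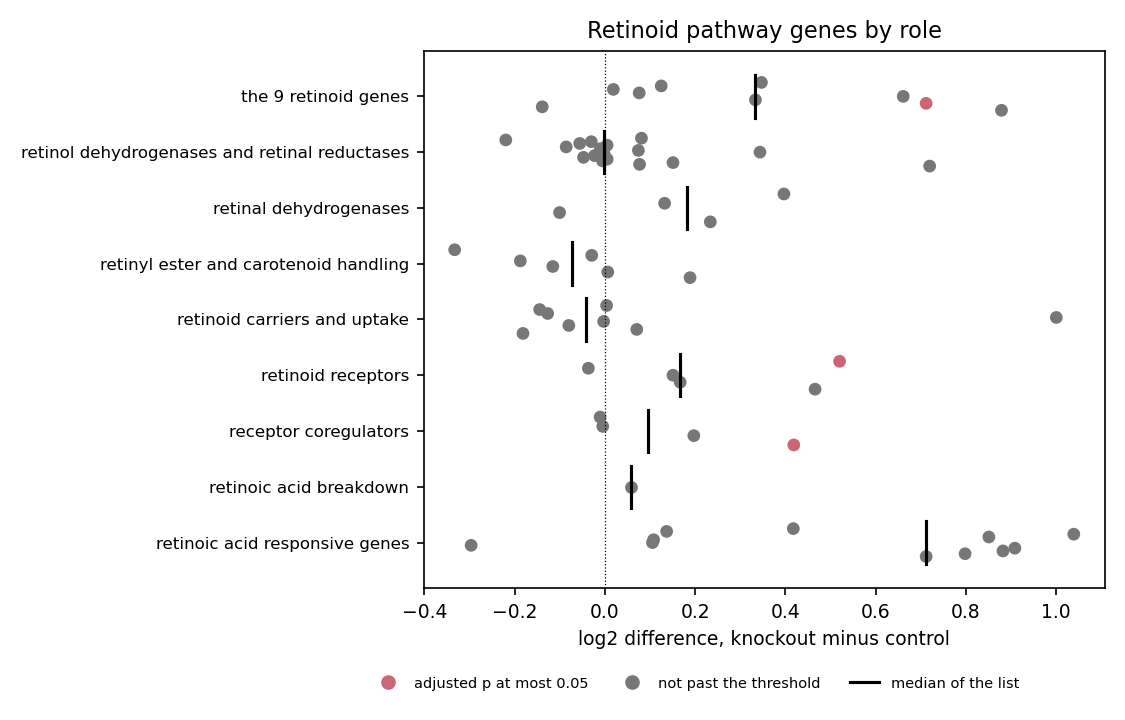
Log2 difference (labelled knockout minus control) of the 9 retinoid genes and of the 56 other measured pathway genes, grouped by role; each point is a gene, red points passed the threshold, and black bars are list medians. Rarb, Rxrg (0.52) and Ncoa1 (0.42) are the red points, and the responsive genes have the highest median (0.71) with no red point.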

How the data were processed

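The deposited table holds 1 column per array of log2 expression values made by the authors; the submitters' processing notes name RMA and no version, and the log2 scale was read from the values (2.55 to 13.9 in each array). The sorted values are identical in the 6 arrays, as quantile normalisation leaves them, which hides any shift common to most genes. Of 24479 features, 23281 were named by Entrez ID, and the brighter feature of 2 duplicated names was kept. The fit used limma 3.58.1 under R 4.3.3 (lmFit, eBayes, 4 residual degrees of freedom); an exact permutation of 3 against 3 arrays cannot go below p = 0.1. The step was tested on simulated data. The precision is limited by the number of arrays. Members and lists were chosen with earlier results of these data known. Named pathway genes are those past the threshold and the 2 with the smallest p of each list of at least 4 measured genes; others are said to be picked after their values were seen. The 4 genes nearest to the most variable member are named by profile. Pathway genes not measured were not analysed here. Alternatives were other variance models, cyclic loess, scaling to hepatoblast genes (each array centred, or 1 constant for the knockout arrays), filters on dim genes, array weights, a replicate block, a sex term and leaving out arrays.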

Additional observations from a re-analysis of the deposited data

How the results depend on the processing

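Of 158 refits of the 9 members under other settings, 138 kept direction and call, 2 gained a call, 7 lost one and 11 changed sign; no cause was tested. All 7 losses were those of Rarb, the only member with a call to lose, and no sign change was in a called gene. The other 8 members were not called in the main fit, so for them keeping the call meant staying uncalled. Centring each array on hepatoblast genes, a fit in which limma also gave all genes 1 common standard error, left 0 members (limma, 1 at an unadjusted p below 0.05) and 0 other pathway genes higher, and 115 of all genes higher beside 593 lower (16.2% higher among calls, against 56.5%). It turned Rbp4 to -0.15, Lrat to -0.20, Cyp26a1 to -0.10, Dgat1 to -0.034 and Ncoa2 to -0.025. With 1 constant for all knockout arrays instead, a setting chosen after seeing the data, these 5 values were the same, 1 member was higher and 1 lower, 0 and 4 pathway genes (2 and 11 unadjusted), and 506 and 5770 of all genes (8.06% higher among calls). With a sex term 0 members, 0 pathway genes and 3 and 0 of all genes were higher and lower (1, 5, 1640 and 1619 at an unadjusted p below 0.05). Without control replicates 1 and 3, a setting chosen after seeing the data, 0 members, 0 pathway genes and 0 and 0 of all genes passed (1, 5, 1391 and 1392 unadjusted); it leaves 1 control, takes the spread from the knockout arrays alone and gives the same differences as the sex term, so it is no separate check. With a variance trend 1 pathway gene, Meis2, was higher. The replicate block gave 2 members higher, Aldh1a2 joining Rarb (limma adjusted p = 0.0391), 0 pathway genes, and 405 and 281 of all genes. Same-numbered arrays did not deviate together over all genes (correlations -0.05, -0.01 and -0.08). This gives no sign that the numbers pair the arrays, but cannot exclude it. Without 1 array, members higher ranged from 0 to 1, pathway genes from 0 to 2, and all genes from 25 to 785 higher and 16 to 610 lower; Lrat ranged from -0.19 to 0.25 and Rbp4 from -0.028 to 0.24. With the dimmest 50% of genes left out, Lrat, Cyp26a1 and Cyp26b1 were not tested.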
